A study of Mus musculus with 10 samples.

Results

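The genes described here are Slc38a7 and 8 further amino acid transporters, Slc38a1, Slc38a2, Slc38a9, Slc1a5, Slc7a5, Slc7a6, Slc3a2 and Slc7a11. All 9 had a probe set that names a single gene and lay above the filter on dim probe sets, out of 12670 genes tested. Slc38a7 was chosen by its genotype difference in these same arrays, which an unmoderated test with unequal variances had called and limma had not. Its genotype values are therefore a description with no test. The other 8 were added for what they are known to carry, with earlier results of these data in view. Most of them move glutamine or leucine, while Slc7a11 exchanges cystine for glutamate and is no glutamine or leucine carrier.

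RNA came from primary mediastinal T cell lymphomas of 10 mice, with 1 microarray per mouse. The 5 WASP-deficient mice carried the NPM-ALK transgene on a Was-deficient background, and the 5 WASP-intact mice, labelled WT, carried the same transgene with Was intact. All mice were on a C57BL/6 background, none was treated, and lymphomas developed within 4 to 5 months of age. NPM-ALK is the fusion kinase of anaplastic large cell lymphoma, and WASP promotes branched actin assembly in blood cells. The promoter that drives the transgene is not given in the sources used here, and the WASP-deficient animals were of either sex, with no sex given for a single mouse.

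Dividing T cells take up large amounts of glutamine and leucine. Glutamine enters through sodium-coupled carriers of the SLC38 and SLC1 families and feeds nucleotide, protein and energy metabolism. Leucine enters through exchangers that pair a light chain, such as the product of Slc7a5, with the heavy chain encoded by Slc3a2, and it activates the growth kinase complex mTORC1 at the lysosome. Amino acids freed inside the lysosome leave it through carriers such as those encoded by Slc38a7 and Slc38a9.

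Levels are log2 of the deposited RMA intensities, and differences are log2 values of WASP-deficient minus WASP-intact arrays unless stated. Before log2, the arrays had median intensities of 117 to 123, and precision is limited by 5 arrays per genotype. Was itself was at 7.92 to 8.20 on the WASP-deficient and at 9.11 to 9.34 on the WASP-intact arrays. Xist, the RNA that silences an X chromosome in female cells, was low in all WASP-deficient lymphomas (4.50 to 5.58), and of the WASP-intact ones low in array 3 (4.40) and high in the remaining 4 (11.52 to 11.90). Genotype and the Xist level therefore coincide on 9 of 10 arrays. The Y-linked gene Kdm5d was high where Xist was low and low where Xist was high. Genotype and these sex-linked levels cannot be told apart on those 9 arrays. On WASP-deficient array 1 and WASP-intact arrays 4 and 5, the T cell adhesion gene Cd2 had levels of 11.52, 11.18 and 11.30, and these 3 are called Cd2-high (log2 of 9 or more). The other 7 are called Cd2-low, with Cd2 at 6.10 to 6.90. The sets come from the measured Cd2 level, not from the design, and no array lay between 6.90 and 11.18. Of 9 tested T cell markers, Thy1, at 11.86 to 12.31, and Cd3e, at 12.06 to 12.59, were bright on all 10 arrays. The T cell receptor chain gene Cd3d was at 5.26 to 6.47 on the Cd2-high and at 8.96 to 10.08 on the Cd2-low arrays. Cd3g, another such chain gene, was at 6.29 to 10.24 and at 11.45 to 12.23 on the same sets. Over all 10 arrays Cd5 was at 6.57 to 7.38, Cd4 at 7.72 to 9.61, Cd8a at 6.38 to 10.42 and Cd247 at 9.5 to 10.6.

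The promoters of the 2 transporters with the largest genotype differences in level are shown first, since each holds a motif searched for. Both are the 250 bases before the gene's start in RefSeq on GRCm38.p6, matched by gene symbol, and capitals mark the motif matches. The Slc38a7 promoter lies at chr8:95853492-95853741 on the minus strand, and the Slc7a11 promoter at chr3:50443614-50443863 on the minus strand.
Slc38a7: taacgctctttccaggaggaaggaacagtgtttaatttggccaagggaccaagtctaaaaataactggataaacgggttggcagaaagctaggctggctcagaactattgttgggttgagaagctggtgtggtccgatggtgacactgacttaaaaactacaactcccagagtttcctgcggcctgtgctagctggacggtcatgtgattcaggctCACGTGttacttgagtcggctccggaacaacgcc
Slc7a11: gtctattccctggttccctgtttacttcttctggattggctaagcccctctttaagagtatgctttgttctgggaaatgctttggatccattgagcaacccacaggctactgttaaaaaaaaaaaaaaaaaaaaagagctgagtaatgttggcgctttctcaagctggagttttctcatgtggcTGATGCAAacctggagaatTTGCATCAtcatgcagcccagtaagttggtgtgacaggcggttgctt

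The searched motifs were the E-box CACGTG, which Myc and the lysosomal regulator TFEB can bind, and the amino acid response element TGATGNAA, a site of the stress factor ATF4, each on both strands. Windows of 300 bases, from 250 before to 50 after the start, were found for 6 of the 9 transporters, which were Slc38a7, Slc38a2, Slc38a9, Slc7a6, Slc3a2 and Slc7a11. The Slc38a7 window held 1 E-box, which begins at position -34 from the start and reads the same on both strands. The Slc7a11 window held 2 amino acid response elements that face each other, beginning at -66 on the strand of the gene and at -47 on the opposite strand. Neither motif was found in the windows of Slc38a2, Slc38a9, Slc7a6 and Slc3a2. Of 32851 RefSeq windows of this length, 7.15% held the E-box and 3.97% the response element. A match of letters is a description of the sequence and shows no binding.

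Slc38a7 encodes a carrier that exports glutamine and asparagine from lysosomes. It was at 8.41, 8.35, 8.52, 8.44 and 8.37 on WASP-deficient arrays 1 to 5, and at 7.88, 7.98, 7.95, 8.04 and 7.96 on WASP-intact arrays 1 to 5. All WASP-deficient arrays lay above all WASP-intact arrays, with a gap of 0.31 between the nearest pair. The mean was 8.42 ± 0.07 in WASP-deficient and 7.96 ± 0.06 in WASP-intact lymphomas (SD, n = 5 each), a difference of 0.45 or 1.37-fold. Within each genotype the arrays spanned less than that gap. WASP-intact array 3, whose Xist level was like that of the WASP-deficient arrays, had 7.95. The Cd2-high lymphomas were at 8.41 for the WASP-deficient and at 8.04 and 7.96 for the WASP-intact ones. The gene was picked for its genotype contrast and its ranges do not overlap, so each of these arrays had to lie with its genotype. Nothing is read from where they lie. The difference was 0.48 (SE 0.095) among the Cd2-low arrays alone and 0.48 (SE 0.113) with the Xist level as a covariate. The SE in the main fit was 0.065. With that covariate the difference rests largely on WASP-intact array 3, as genotype and Xist coincide on the other 9. It lay between 0.43 and 0.48 over 22 alternative settings. These settings reuse the arrays that picked the gene, so nothing is read from that range. A single probe set measures the gene.

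**Figure D1:**
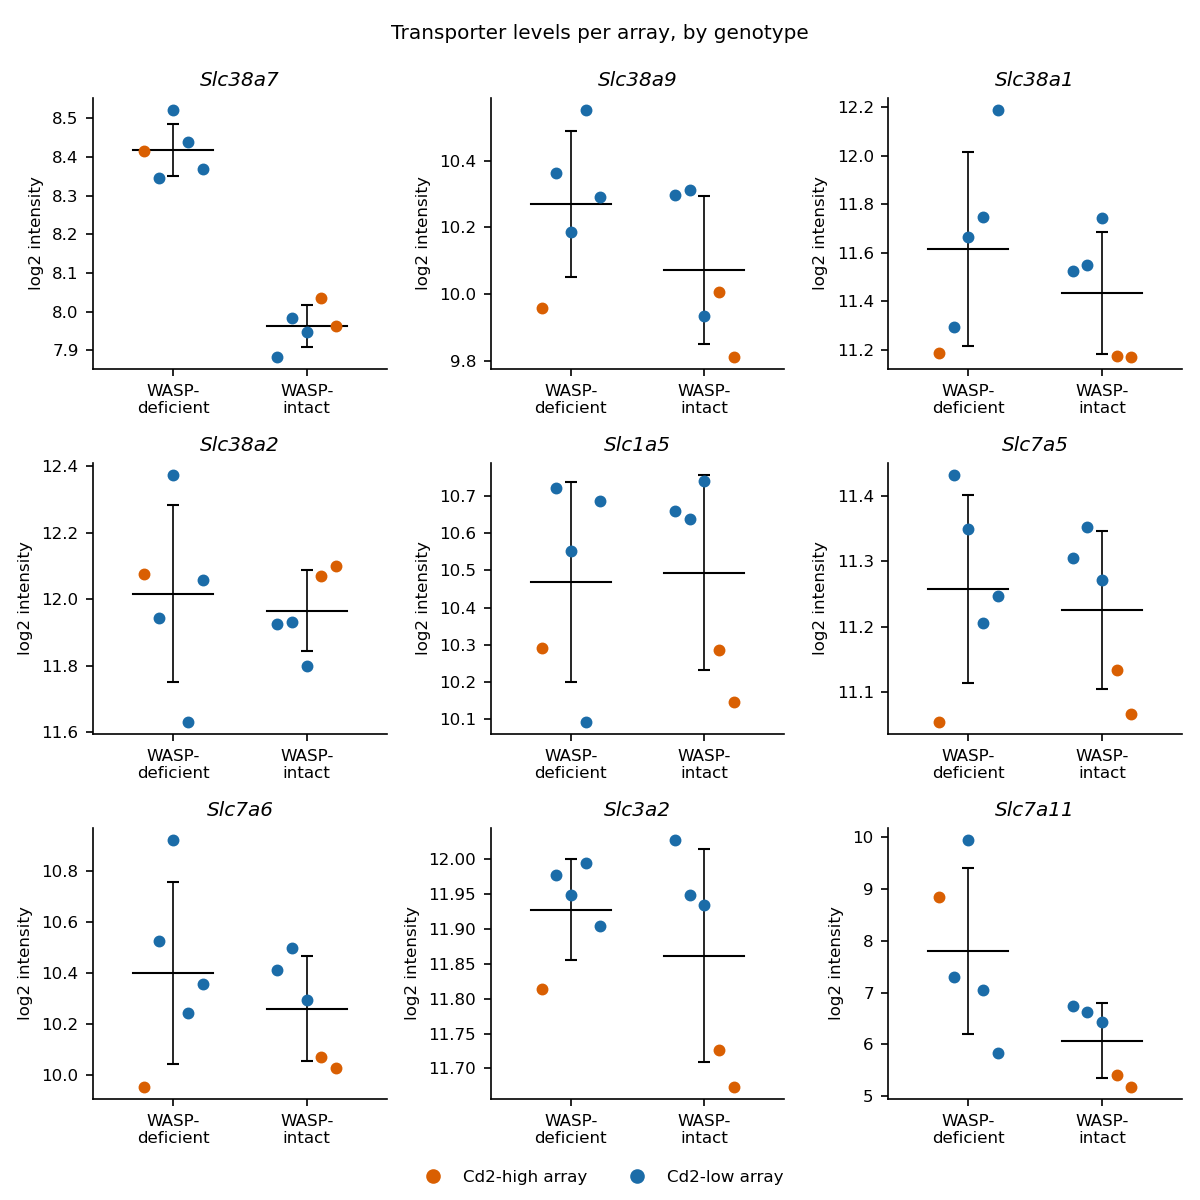
Log2 intensity of each transporter on each of the 10 arrays, WASP-deficient left and WASP-intact right. Each point is 1 mouse, coloured by Cd2-high or Cd2-low, with the mean as a line and the SD as a bar, and each panel has its own axis range. Slc38a7 is the panel in which the genotypes do not overlap, with 8.35 to 8.52 in WASP-deficient and 7.88 to 8.04 in WASP-intact lymphomas.

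Marker lists of cell types that the tissue could hold were also read by genotype. The mean level of 9 tested macrophage markers was 9.01 to 9.71 on WASP-deficient and 8.93 to 9.38 on WASP-intact arrays, with higher values in WASP-deficient lymphomas for 8 of the 9. For 7 epithelial markers it was 7.44 to 8.41 on WASP-deficient and 6.89 to 7.67 on WASP-intact arrays, with 7 of 7 higher. For 5 adipocyte markers it was 6.83 to 7.50 on WASP-deficient and 7.48 to 8.14 on WASP-intact arrays, with 5 of 5 lower. For 6 fibroblast markers it was 7.98 to 9.02 on WASP-deficient and 8.08 to 9.62 on WASP-intact arrays, with 6 of 6 lower. For 6 muscle markers it was 6.75 to 6.94 on WASP-deficient and 6.79 to 8.63 on WASP-intact arrays, with 6 of 6 lower. The 8.63 is WASP-intact array 4 alone, and the other WASP-intact arrays were at 6.79 to 7.27. For 5 endothelial markers it was 8.17 to 8.47 on WASP-deficient and 8.32 to 8.73 on WASP-intact arrays, with 4 of 5 lower. For 9 T cell markers it was 9.28 to 9.86 on WASP-deficient and 8.98 to 9.88 on WASP-intact arrays, with 6 of 9 lower. Of 6 B cell markers 1 was tested, Cd79b, at 6.99 to 8.24 on WASP-deficient and 6.84 to 7.74 on WASP-intact arrays. The adipocyte marker Adipoq and the muscle marker Myh7 had WASP-deficient means of 5.99 and 6.19, under the filter level of 6.35. Adipoq passed the filter through its WASP-intact values. Myh7 passed it through WASP-intact array 4 alone, at 7.88, and lay under that level on the other WASP-intact arrays. Both are counted in the lower values above. The part of the listed cell types in the Slc38a7 values was not tested. In bulk tissue more cells of a type and more RNA per cell cannot be told apart.

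The RefSeq table places Slc38a7 on chromosome 8 between Sap18b and Got2. Got2, which encodes mitochondrial aspartate aminotransferase, was at 12.26 to 12.57 on WASP-deficient and at 12.25 to 12.40 on WASP-intact arrays (difference 0.10, SE 0.08, limma adjusted p = 0.999). Cnot1, a scaffold of mRNA deadenylation beyond Sap18b, was at 11.58 to 11.97 and at 11.67 to 11.78 (difference 0.01, SE 0.09, limma adjusted p = 0.999). Both neighbours thus overlapped between the genotypes, and Sap18b and Cdh8, on the far side of Got2, were not tested. Slc7a5 and Slc7a6 lie on chromosome 8 as well, and Slc38a1 and Slc38a2 share chromosome 15.

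The 5 genes whose levels were most like those of Slc38a7 over the 10 arrays were Dtd1 (Pearson r = 0.93), Paqr4 (0.89), Stra6 (0.86), Erbb2 (0.86) and Niban1 (0.85). Over the 7 Cd2-low arrays their r was 0.93, 0.91, 0.84, 0.88 and 0.89. The arrays share the genotype split, and all 5 genes were higher on every WASP-deficient array than on every WASP-intact one, by 0.16 for Dtd1 to 0.31 for Niban1. None passed the test of genotype (limma adjusted p = 0.999 for each). These genes were chosen for their likeness out of 12670, so the r values are a description only.

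Over the whole list, 0 of 9 transporters passed the test of genotype (limma, adjusted p under 0.05), against 0.00789% of all genes, which is Was alone. At an unadjusted p under 0.05 there were 2, Slc38a7 and Slc7a11, against 2.89% of all genes. Slc38a7 was chosen on this contrast and Slc7a11 passed the filter on dim probe sets through its WASP-deficient values, so nothing is read from these counts. The ranges of the genotypes did not overlap for 1 of 9, Slc38a7, against 0.568% of all genes, or 0.324% with every WASP-deficient array higher. That share includes the contrast that picked Slc38a7, so nothing is read from it. Values were higher in WASP-deficient lymphomas for 8 of 9 transporters and for 48.9% of all genes, with a median difference of 0.14 over the 9 and of -0.004 over all genes. The count and median over the 9 include Slc38a7 and Slc7a11, so nothing is read from either value. Without Slc38a7 the count was 7 of 8, which still holds Slc7a11.

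Slc38a9, the other lysosomal carrier, exports leucine and other amino acids in response to arginine and signals to mTORC1. It was at 9.96, 10.36, 10.19, 10.55 and 10.29 on the WASP-deficient and at 10.30, 10.31, 9.94, 10.01 and 9.81 on the WASP-intact arrays. The genotypes overlapped, and the difference of 0.20 (SE 0.14) did not pass (limma adjusted p = 0.999). A second, dimmer probe set gave 0.19.

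Among the 3 listed carriers of the cell surface that import glutamine, Slc38a1, Slc38a2 and Slc1a5, Slc38a1 spread most. It was at 11.19, 11.29, 11.66, 11.75 and 12.19 on the WASP-deficient and at 11.52, 11.55, 11.74, 11.17 and 11.17 on the WASP-intact arrays. Its highest value was that of WASP-deficient array 5, and the difference of 0.18 (SE 0.19) did not pass (limma adjusted p = 0.999) and was 0.04 without that array. That array was also the highest on the second probe set of the gene, at 10.01 against 8.84 to 9.53 on the other arrays.
Slc38a2, which cells induce when amino acids run short, was at 12.08, 11.94, 12.37, 11.63 and 12.06 on the WASP-deficient and at 11.92, 11.93, 11.80, 12.07 and 12.10 on the WASP-intact arrays (difference 0.05, SE 0.13). Slc1a5, a sodium-dependent exchanger and main glutamine importer of many tumours, was at 10.29, 10.72, 10.55, 10.09 and 10.69 on the WASP-deficient and at 10.66, 10.64, 10.74, 10.29 and 10.15 on the WASP-intact arrays (difference -0.03, SE 0.16). Both had overlapping genotypes and neither passed (limma adjusted p = 0.999 for each).

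The leucine exchangers differed little between genotypes. Slc7a5, the light chain of the main leucine exchanger of activated T cells, was at 11.05 to 11.43 on the WASP-deficient and at 11.07 to 11.35 on the WASP-intact arrays, with a difference of 0.03 (SE 0.09). Slc3a2, its heavy chain, was at 11.81 to 11.99 and at 11.67 to 12.03, with a difference of 0.07 (SE 0.09). Both varied less over the 10 arrays than most genes, with SDs at the 17.5th and 13.6th percentile of all genes tested. Slc7a6, a light chain that exchanges arginine for glutamine or leucine, was at 9.96, 10.53, 10.92, 10.25 and 10.36 on the WASP-deficient and at 10.41, 10.50, 10.29, 10.07 and 10.03 on the WASP-intact arrays. Its difference was 0.14 (SE 0.17) and 0.009 without WASP-deficient array 3, and none of these 3 passed (limma adjusted p = 0.999 for each).

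**Figure D2:**
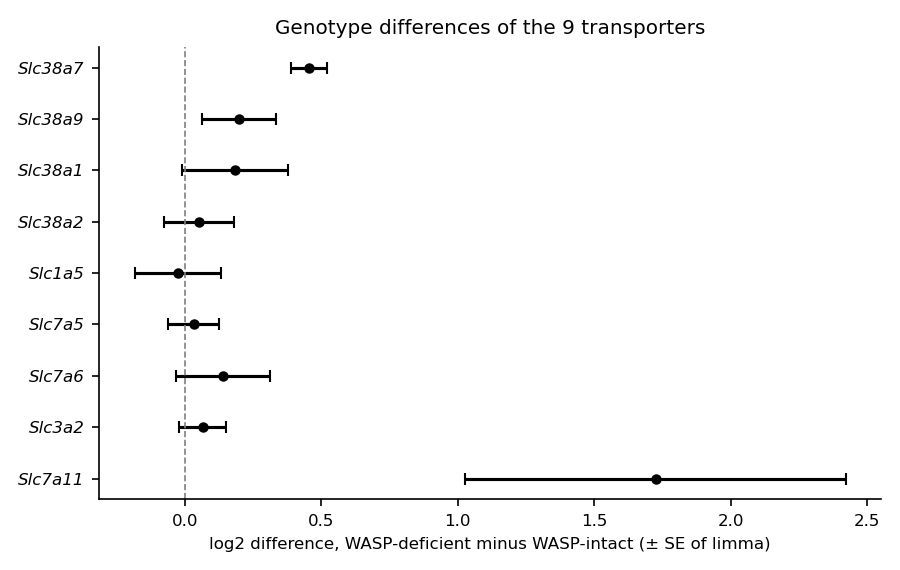
Log2 difference of WASP-deficient minus WASP-intact arrays for each transporter, with the standard error of limma as a bar and a dashed line at no difference. Slc7a11 has the largest difference and the widest bar (1.72, SE 0.70), Slc38a7 stands at 0.45 with a bar of 0.07, and the other 7 lie between -0.03 and 0.20.

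Slc7a11, which encodes the light chain of the cystine and glutamate exchanger and supplies cysteine for glutathione, varied most. It was at 8.85, 7.31, 9.94, 7.05 and 5.84 on the WASP-deficient and at 6.73, 6.61, 6.43, 5.41 and 5.18 on the WASP-intact arrays. WASP-deficient arrays 1 and 3 stood more than 1 log2 unit above all other arrays, while WASP-deficient array 5 lay inside the WASP-intact range. The mean was 7.80 ± 1.61 in WASP-deficient and 6.07 ± 0.72 in WASP-intact lymphomas (SD, n = 5 each), and the SD over all arrays was at the 99.3rd percentile of all genes. The difference was 1.72 (SE 0.70). It was 0.94 among the Cd2-low arrays alone and 0.88 with array weights, and 1.19 without WASP-deficient array 3. The WASP-intact mean and 3 of the 10 arrays lay under 6.35, the level used as a filter on the mean over all arrays. Slc7a11 thus passed that filter through its WASP-deficient values, and its difference is given as a description, with no test.

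Slc7a11 was read beside genes of the oxidative and amino acid responses. Hmox1, a heme oxygenase induced by oxidative stress, was at 9.28, 9.97, 10.09, 10.93 and 10.34 on the WASP-deficient and at 9.26, 9.22, 8.73, 8.89 and 9.13 on the WASP-intact arrays, narrowly higher on every WASP-deficient array (difference 1.08, SE 0.26, limma adjusted p = 0.999). Gclm, a subunit of the enzyme that begins glutathione synthesis, was at 9.28, 9.58, 9.95, 9.77 and 9.65 and at 9.49, 9.42, 9.46, 9.03 and 9.29 on the same arrays (difference 0.31, SE 0.13, limma adjusted p = 0.999). Atf4, which encodes the factor that drives Slc7a11 through amino acid response elements, was at 8.52, 8.56, 8.72, 8.16 and 8.41 on the WASP-deficient and at 8.37, 8.27, 8.15, 8.18 and 8.24 on the WASP-intact arrays (difference 0.23, SE 0.10, limma adjusted p = 0.999). WASP-deficient array 3 was the highest of all arrays for Slc7a11, Gclm and Atf4, but Hmox1 was highest on WASP-deficient array 4. None of these genes passed the test. Hmox1, Gclm and Atf4 are named as genes of smallest p in their lists, so their shared direction came with that choice. In the cystine and glutathione list 9 tested genes had higher and 4 lower values, with a median of 0.08. In the amino acid response list 16 had higher and 8 lower values, with a median of 0.03. Macrophage markers on WASP-deficient arrays 1 to 5 had mean levels of 9.55, 9.71, 9.45, 9.57 and 9.01. Array 5 was lowest for them and for Slc7a11. Array 3, highest for Slc7a11, had a lower marker mean than arrays 1, 2 and 4, and array 2, highest for the markers, had Slc7a11 at 7.31. The part of these markers in the Slc7a11 values was not tested.

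**Figure D3:**
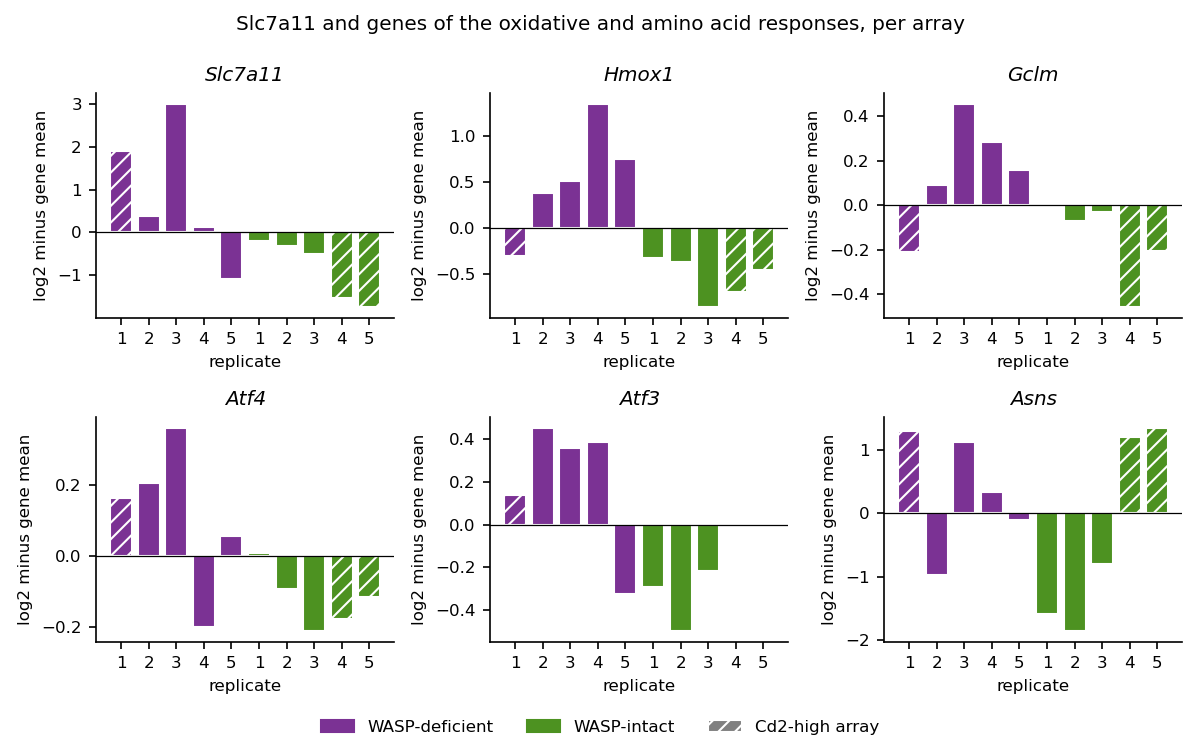
Log2 level minus the mean of the gene over the 10 arrays for Slc7a11, the oxidative response genes Hmox1 and Gclm, and the amino acid response genes Atf4, Atf3 and Asns. WASP-deficient replicates stand left and WASP-intact replicates right, with hatching on Cd2-high arrays, each panel has its own axis range, and arrays at the gene mean show no visible bar. Slc7a11 peaks on WASP-deficient array 3 (9.94), while Asns is high on the 3 Cd2-high arrays (10.64 to 10.78) and on WASP-deficient array 3 (10.56).

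Set by Cd2 level, several transporters were lower together on the Cd2-high arrays. The Cd2-high set holds 1 WASP-deficient and 2 WASP-intact lymphomas and the Cd2-low set 4 and 3, and no test was made between sets seen in the data. For 4 of 9 transporters, Slc38a1, Slc7a5, Slc7a6 and Slc3a2, all Cd2-high arrays lay below all Cd2-low arrays, and for 0 of 9 all lay above. Over all genes, 30.5% did not overlap between the sets, 16.1% with Cd2-high lower and 14.4% with Cd2-high higher. The Cd2-high median was lower for 8 of 9 transporters, and the median of these differences was -0.34 over the 9 and -0.02 over all genes. The 8 include Slc38a7, picked for its genotype contrast, while the genotypes are unevenly split between the sets. They also include Slc7a11, whose Cd2-high median of 5.41 lay under the filter level of 6.35. No share over all genes stands beside the 8 of 9, so nothing is read from that count.

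Slc7a6 was at 9.96, 10.07 and 10.03 on the Cd2-high arrays, against 10.25, 10.41 and 10.92 as the lowest, median and highest of the Cd2-low arrays. Slc38a1 was at 11.19, 11.17 and 11.17, against 11.29, 11.66 and 12.19. Slc3a2 was at 11.81, 11.73 and 11.67, against 11.90, 11.95 and 12.03. These 3, and Slc7a5 at 11.05, 11.13 and 11.07 against 11.21, 11.31 and 11.43, left gaps of 0.07 to 0.17 between the sets. The heavy chain and both of its leucine-carrying light chains in the list were thus lower together on the Cd2-high arrays.

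The remaining 5 overlapped between the sets. Slc1a5 was at 10.29, 10.29 and 10.15 on the Cd2-high arrays, against 10.09, 10.66 and 10.74, and WASP-deficient array 4 alone of the Cd2-low arrays lay below the Cd2-high ones. Slc38a9 was at 9.96, 10.01 and 9.81, against 9.94, 10.30 and 10.55, with WASP-intact array 3 as the array that overlapped. Slc38a2 was the transporter with the higher median on the Cd2-high arrays, at 12.08, 12.07 and 12.10 against 11.63, 11.93 and 12.37. Slc38a7 lay by genotype, the contrast it was picked for, and Slc7a11 was at 8.85, 5.41 and 5.18 on the Cd2-high arrays against 5.84, 6.73 and 9.94. The second probe sets disagreed in this reading, since the dimmer one overlapped between the sets for Slc38a1 and did not overlap for Slc38a9, at 7.19 to 7.43 against 7.47 to 7.87.

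**Figure D4:**
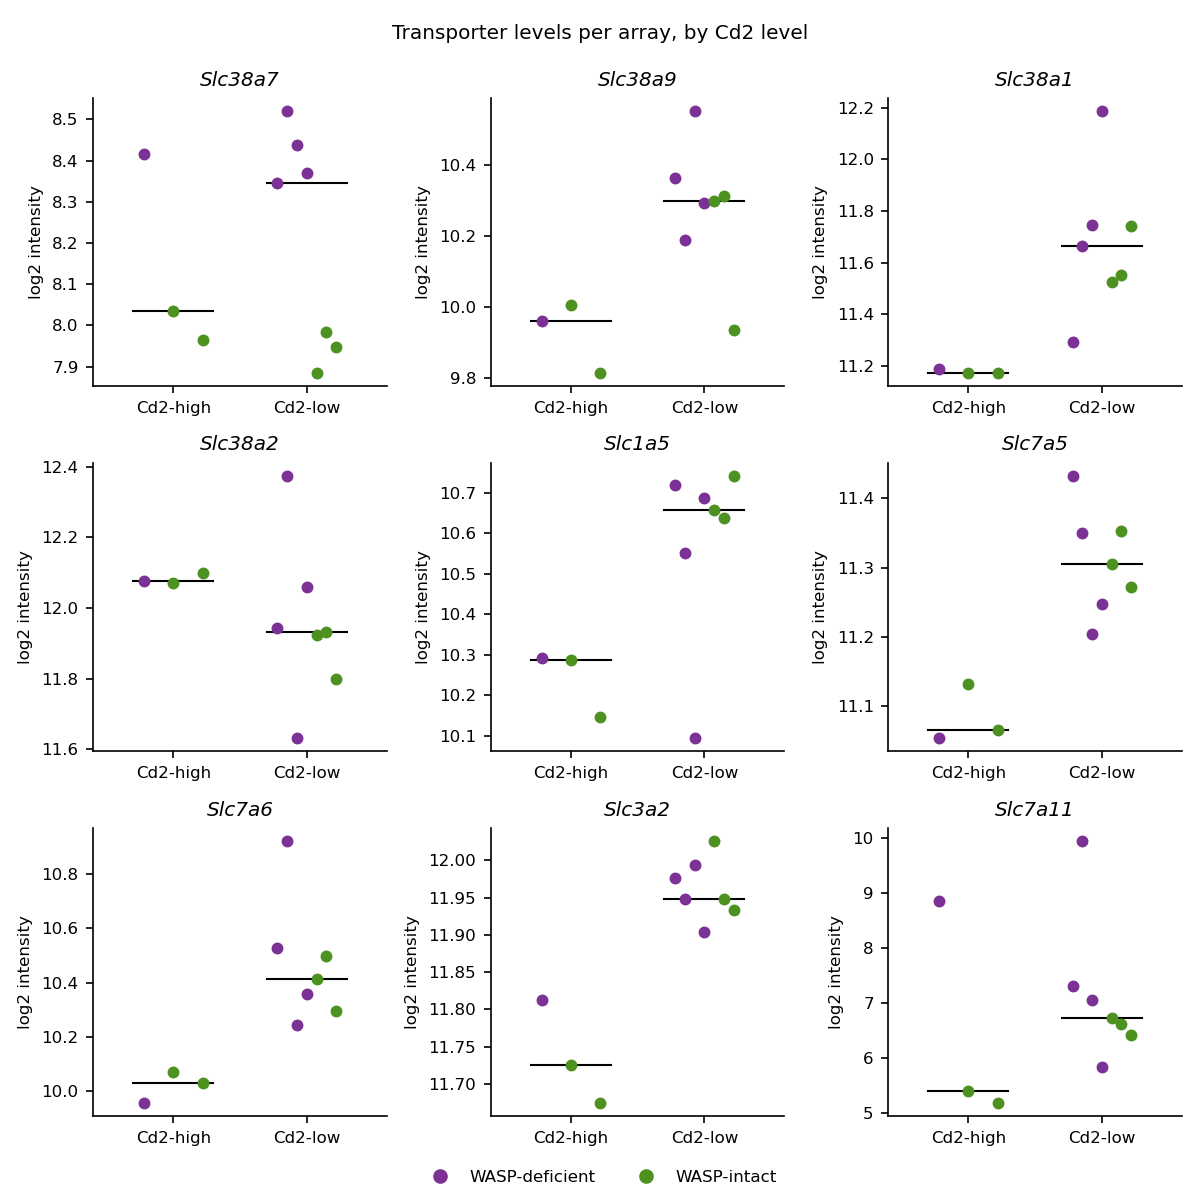
Log2 intensity of each transporter on the 3 Cd2-high arrays, left, and the 7 Cd2-low arrays, right. Each point is 1 mouse, coloured by genotype, with the median of the set as a line, and each panel has its own axis range. Slc38a1, Slc7a5, Slc7a6 and Slc3a2 are the panels in which every Cd2-high point lies below every Cd2-low point.

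Other amino acid transporters were read the same way. Of 35 listed genes 24 were tested, and 7 were lower and 3 higher on all Cd2-high arrays, beside 16.1% lower and 14.4% higher over all genes. The 7 include Slc3a1, at 6.0 to 6.2 on the Cd2-high arrays, under the filter level of 6.35. It passed the filter through its Cd2-low values. The median of the Cd2 differences was -0.14 over these 24. The genes named in this paragraph and the next were chosen after their values were seen. Slc38a3, a glutamine carrier of the same family as Slc38a1, was at 6.53, 7.52 and 6.21 on the Cd2-high arrays, against 8.91 to 9.09 on the Cd2-low arrays. Slc7a7, a light chain with the same kind of exchange as Slc7a6 and the same heavy chain partner, went the other way, at 9.32, 9.77 and 9.70 against 7.15 to 7.85. Slc7a1, an arginine importer, was at 8.84 to 8.93 and 9.06 to 9.45. The light chains that pair with Slc3a2 therefore did not all lie on the same side.

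Of 16 tested genes of glutamine metabolism, 6 were lower and 3 higher on all Cd2-high arrays, beside the same 16.1% and 14.4% of all genes. Cad, which uses glutamine to begin pyrimidine synthesis, was at 9.25, 9.23 and 9.31 on the Cd2-high arrays, against 10.06 to 10.24. Asns, which makes asparagine from glutamine, was at 10.73, 10.64 and 10.78, against 7.58 to 10.56. Rragd, a GTPase that links amino acids to mTORC1, was at 9.01, 8.44 and 8.51, against 6.42 to 6.74, and Sesn2, a leucine sensor that holds mTORC1 back, was at 7.09, 6.88 and 7.25, against 7.73 to 8.34. Of 27 tested genes of amino acid sensing by mTORC1, 6 were lower and 1 was higher on all Cd2-high arrays, a share no larger than the 30.5% of all genes that did not overlap. Fibroblast markers had a mean level of 9.02 to 9.62 on the Cd2-high and of 7.98 to 8.66 on the Cd2-low arrays over 6 tested genes, and their part in these values was not tested.

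By genotype, no gene of the surrounding pathways passed, so the counts below are of values (limma, adjusted p under 0.05, 0 passed in either direction in all 8 lists). Among the 24 other amino acid transporters 13 had higher and 11 lower values in WASP-deficient lymphomas, with a median of 0.02. Those of smallest p were Slc15a3, a lysosomal carrier of histidine and short peptides (0.52, SE 0.16), and Slc7a8, another light chain for neutral amino acids (0.38, SE 0.15). Slc15a3 was at 7.19 to 8.01 on WASP-deficient and at 6.84 to 7.35 on WASP-intact arrays.

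Lysosomal genes, listed because Slc38a7 sits in the lysosome, had higher values for 20 of 27 and lower for 7, with a median of 0.07. Lamp1, a main protein of the lysosomal membrane, was at 10.79 to 11.02 on WASP-deficient and at 10.60 to 10.88 on WASP-intact arrays (0.20, SE 0.08), and the protease gene Ctsb differed by 0.18 (SE 0.09). Genes of cystine and glutathione metabolism had higher values for 9 of 13, with Hmox1 and Gclm of smallest p and a median of 0.08. Amino acid response genes had higher values for 16 of 24 and a median of 0.03, led by Atf3 (0.40, SE 0.16) and Atf4.

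Genes of glutamine metabolism had higher values for 11 of 16, with a median of 0.03, Gpt2, an alanine aminotransferase, at 0.37 (SE 0.20) and Got2 as given above. Genes of amino acid sensing by mTORC1 had higher values for 14 of 27 and a median of 0.01, with Fnip2 at 0.40 (SE 0.22) and Rptor, the scaffold of mTORC1, at -0.14 (SE 0.08). Genes of branched-chain amino acid breakdown had lower values for 12 of 15 and a median of -0.03, with the phosphatase gene Ppm1k at -0.34 (SE 0.22) and Hibch at -0.15 (SE 0.10). Of 17 genes of the Myc and proliferation list 10 had higher values, with a median of 0.04. Ccnd2, a D-type cyclin, was at 1.13 (SE 0.53), the proliferation marker Mki67 at -0.20 (SE 0.13), and Myc, which can raise Slc1a5 and Slc7a5 transcription, at -0.02 (SE 0.14). Several lists share genes, such as Asns in glutamine metabolism and the amino acid response.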

How the data were processed

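Gene expression was measured with 1 Affymetrix array per mouse, per the labels. The deposited values are probe set intensities on a linear scale that the authors made with RMA, per the submitters' processing notes; the sources used here give no version, genome build or probe annotation. RMA equalises the distribution of values over arrays, so array-wide differences cannot be read. The log2 of each value was taken. Of 34760 probe sets, 21640 had 1 gene symbol in the platform annotation; symbols were checked by gene ID against RefSeq (GRCm38.p6). Probe sets whose mean lay under the 40th percentile (log2 6.35) were left out, and each gene kept its probe set of highest mean, leaving 12670 genes. Levels of different genes are not compared, since probes differ in brightness.

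Genotypes came from the sample titles, which call the replicates biological. They were compared with limma 3.58.1 (lmFit, eBayes) in R 4.3.3, with Benjamini-Hochberg adjustment over all genes and a threshold of 0.05. The fit was tested on simulated data. Cd2-high and Cd2-low arrays were described without a test. Figures were drawn with matplotlib 3.10.9. Alternatives were other filters, probe set rules, variance models, covariates, scaling, an offset, a replicate block and leaving out each array. The transporters and gene lists were chosen with earlier results of these data known. The genes named are the transporters, the 5 most like Slc38a7, the 2 of smallest p in each pathway list, the neighbours of Slc38a7 and Was, Cd2, Cd3d, Xist, Kdm5d and Myc. From the marker lists, Thy1, Cd3e, Cd79b, Adipoq and Myh7 were named after their values were seen, as were the other tested T cell markers. Slc38a3, Slc3a1, Slc7a7, Slc7a1, Cad, Asns, Rragd and Sesn2 were also chosen after their values were seen.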

Additional observations from a re-analysis of the deposited data

How the results depend on the processing

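Over 22 alternative settings, the Slc38a7 difference lay between 0.43 and 0.48. The gene was picked on these arrays and its genotypes do not overlap, so leaving out an array could not change its direction. None of the 7 transporters other than Slc38a7 and Slc7a11 passed in these settings (lowest adjusted p = 0.659 over the limma and unmoderated tests). The number of transporters called was 0 in each limma setting and 1 with the unmoderated test with unequal variances, which was Slc38a7, the gene that test had picked. Over all genes the count was 2 with that test, 2 among the Cd2-low arrays alone, 0 with the Xist covariate (187 at an unadjusted p under 0.05) and 0 with a replicate block (248). It ranged from 1 to 4 when 1 array was left out, with 4 without WASP-intact array 3 and 2 without WASP-deficient array 1. Same-numbered arrays did not regularly deviate together (correlations of deviations from -0.71 to 0.37). The Cd2-high arrays carry different numbers in the genotypes, so these correlations cannot show whether the numbers pair the animals. Small differences changed sign. These were Slc38a1 with the Xist covariate (-0.067), Slc7a5 with array weights (-0.003), with Cd2 as a covariate (-0.014) and among Cd2-low arrays (-0.001), and Slc3a2 with array weights (-0.009), the Xist covariate (-0.002) and among Cd2-low arrays (-0.014); the cause was not tested. With 1 array left out, the difference ranged from -0.037 to 0.148 for Slc38a2, from -0.113 to 0.068 for Slc1a5, from -0.012 to 0.083 for Slc7a5, from 0.04 to 0.29 for Slc38a1 and from 0.009 to 0.251 for Slc7a6. Array weights gave 0.05 for Slc38a1 and 0.008 for Slc7a6. The count of transporters that did not overlap between the Cd2 sets was 4, or 5 with the mean of probe sets and without WASP-intact array 3 or WASP-deficient array 1, 3 or 4. Slc7a11 lay below the filter at the 60th percentile and has no value there. No depth is recorded for arrays, and the number of arrays limits the precision.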

Other observations

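The Y-linked gene Kdm5d was high in all WASP-deficient lymphomas (8.20 to 9.20). Of the WASP-intact lymphomas it was high in array 3 (8.68) and low in the remaining 4 (4.61 to 5.51). Dixon's test found 0 arrays far from the rest of their genotype for the 9 transporters, in 18 groups of 5 arrays.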
